A study of Homo sapiens with 18 samples.

Results

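The transcripts described here encode the enzymes that place or remove methyl and acetyl groups on histones, together with a pair of scaffold proteins of acetyltransferase complexes. They were chosen by gene symbol, from the KMT, SETD, NSD, SUV39H, EHMT, EZH, KDM, PRMT, KAT, HDAC and SIRT series and from DOT1L, ASH1L, EP300, CREBBP, BRPF1 and BRPF3. Of the 8996 genes with fitted kinetics, 66 met this rule. They comprise 26 lysine methyltransferases, counting SETD family members whose main substrates are not histones, 7 arginine methyltransferases, 13 lysine demethylases, 8 acetyltransferases, 2 BRPF scaffolds, 7 HDAC deacetylases and 3 sirtuins.

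The half-lives came from SLAM-seq, in which cells take up 4-thiouridine (s4U) and new RNA is told from old by the T-to-C changes that the label leaves in the reads. Wild-type HEK293T cells, a human embryonic kidney line, received STM2457, an inhibitor of the RNA methyltransferase METTL3, or DMSO, its solvent, for 3 h. Labelling at 100 µM s4U then lasted 90 or 180 min, and further samples got no label, which gave 6 combinations with 3 samples each, or 9 samples per treatment. For each gene, 1 fitted half-life and 1 fitted synthesis rate were deposited per treatment, so no spread between samples can be given, no test was possible, and every difference below is a description. Depth is unknown, because the table gives no counts. The labels do not say whether the 3 samples of a combination were separate cultures. METTL3 itself had a half-life of 3.51 h in STM2457 and 4.00 h in DMSO, which is no check of an inhibitor that acts on the protein.

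Histone writers use S-adenosylmethionine or acetyl-CoA to modify lysines and arginines of the histone tails, and erasers reverse the mark. Methylation marks active promoters, gene bodies or silent chromatin depending on the residue, whereas acetylation generally accompanies open chromatin. METTL3 methylates adenosines of mRNA within the DRACH sequence context, and mRNAs that carry this m6A mark are commonly degraded faster. Sites in coding regions are found mostly in long exons, away from exon junctions.

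Histone-modifying enzyme mRNAs were short-lived in both treatments. The median half-life of the 66 transcripts was 4.38 h in STM2457 and 3.35 h in DMSO, against 5.39 h and 5.61 h over all genes. Transcripts with a half-life under the median of all genes numbered 43 of 66 in STM2457 and 48 of 66 in DMSO. A transcript is called longer-lived or shorter-lived where its STM2457 half-life lay more than 1.5-fold above or below its DMSO half-life. By that rule 20 of the 66 were longer-lived (30.3%, against 28.5 percent of all genes) and 11 were shorter-lived (16.7%, against 24.9 percent of all genes), and 35 lay within 1.5-fold. The longer-lived share was near that of all genes, and so was the median log2 ratio of STM2457 over DMSO, at 0.07 for the enzymes and -0.01 for all genes. Where neither fit lay outside 0.5 to 24 h, 12 of 57 enzymes were longer-lived and the median was -0.02. This range also acts on the STM2457 half-life, and all 11 shorter-lived enzymes lay inside it. The lower count and median in the range follow from that choice. Without the 12 enzymes whose fits exceed the synthesis limit given further on, 9 of 54 were longer-lived and the median was -0.115. That limit is applied to the STM2457 half-life itself, and 11 of the 12 enzymes left out were longer-lived. The lower count and median therefore follow from the filter. Shares of all genes under these 2 restrictions are not given here. Past 2-fold, 15 enzymes were longer-lived (22.7%, against 19.7 percent of all genes) and 2 were shorter-lived (3.03%, against 11.3 percent), namely HDAC5 and PRMT5.

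Fitted half-lives end at a ceiling of 69.3 h, which corresponds to a decay rate of 0.01 per h. In STM2457, 6 of the 66 transcripts sat at this ceiling (9.09%, against 10.9% of all genes), namely SUV39H1, SETD3, KDM2B, BRPF3, HDAC7 and SIRT3, whereas in DMSO none of the 66 did. The ratios of these 6 transcripts are therefore set by the limit of the fit.

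**Figure D1:**
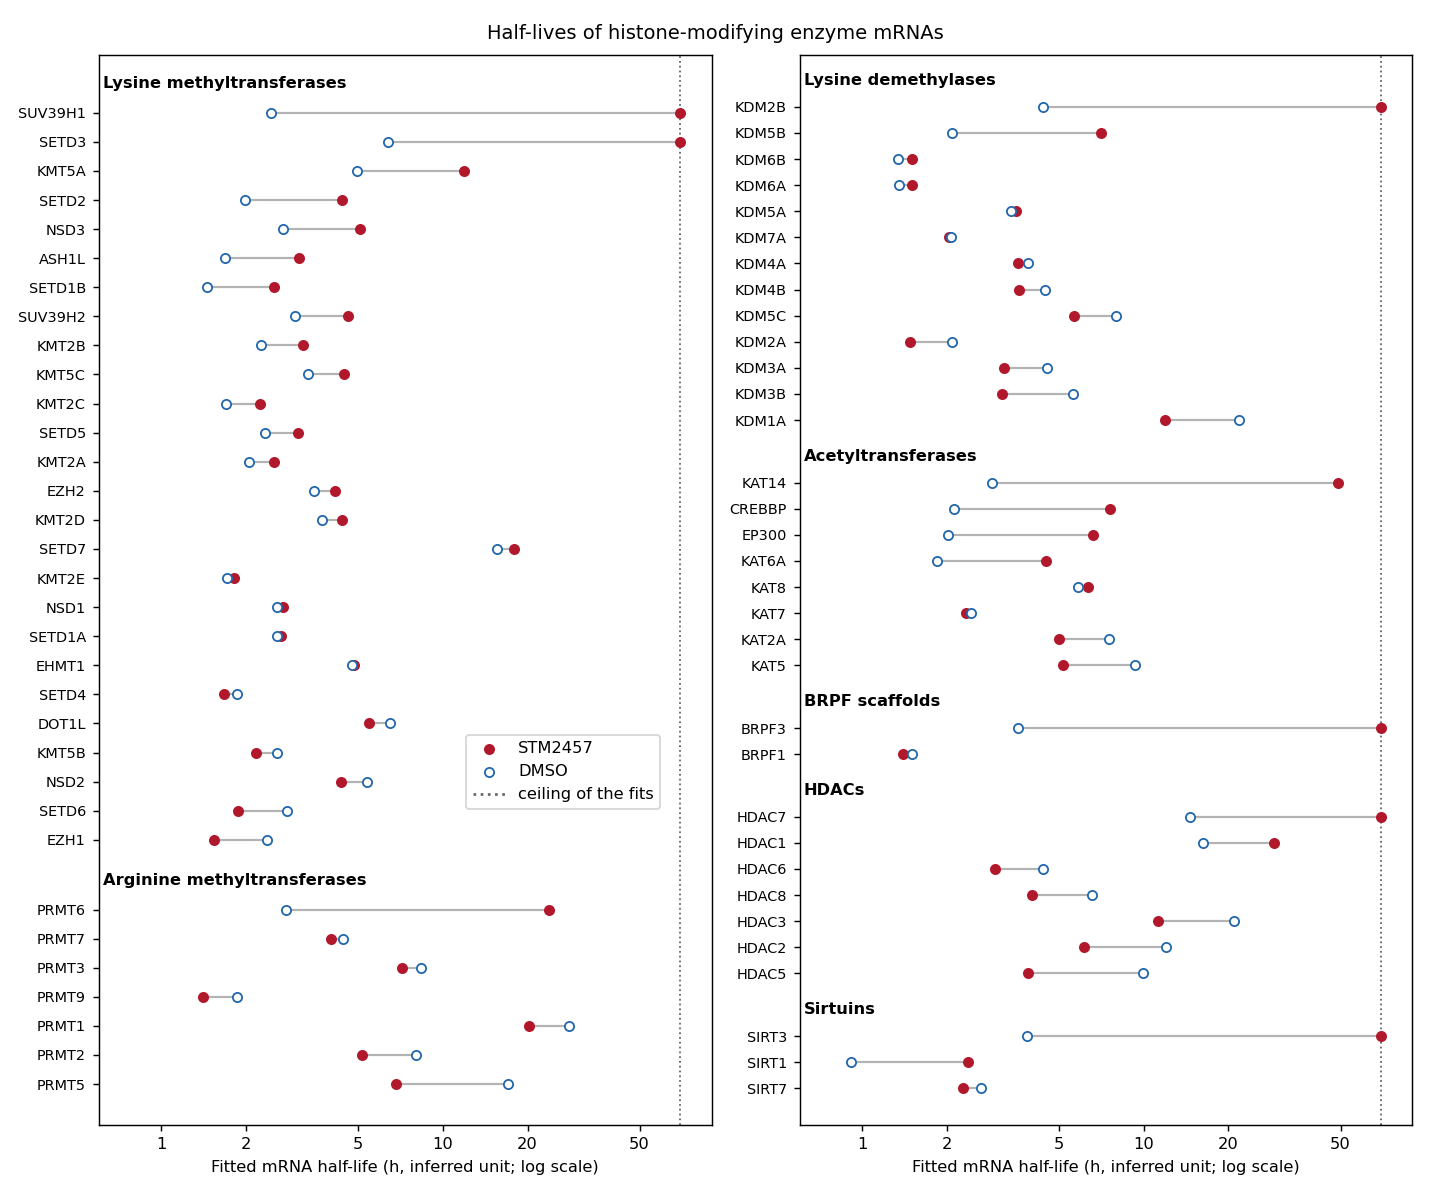
Fitted half-life in hours (an inferred unit, log scale) of each of the 66 transcripts, with filled red points for STM2457 and open blue points for DMSO, joined by a line and ordered within each class by their ratio. The 6 transcripts at the dotted ceiling of 69.3 h in STM2457 lay between 2.46 h and 14.6 h in DMSO.

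Lysine methyltransferases included 8 longer-lived transcripts among 26 (30.8%, against 28.5% of all genes) and 1 shorter-lived (3.85%, against 24.9%). The longer-lived share was near that of all genes. Their median log2 ratio was 0.28. SUV39H1, which places the H3K9 trimethylation of constitutive heterochromatin, had a half-life of 69.3 h in STM2457 and 2.46 h in DMSO. Its relative SUV39H2 shifted the same way by a far smaller amount, 1.54-fold, with 4.59 h in STM2457 and 2.98 h in DMSO. The end of the SUV39H2 transcript is nearly identical to that of the gene AL139396.1, so its reads may be split between them and its value is uncertain. SETD3, an actin histidine methyltransferase named as a histone enzyme, had 69.3 h in STM2457 and 6.39 h in DMSO.

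Of the writers of H3K36 methylation 3 of 5 were longer-lived (60%), and of those of H4K20 methylation 1 of 3 (33.3%), against 28.5% of all genes. SETD2, the enzyme for H3K36 trimethylation, had 4.40 h in STM2457 and 1.99 h in DMSO, a 2.21-fold longer half-life. ASH1L, an H3K36 dimethyltransferase, had 3.09 h in STM2457 and 1.68 h in DMSO. NSD3, of the same H3K36 family, had 5.10 h in STM2457 and 2.71 h in DMSO. Its relatives lay within 1.5-fold: NSD1 had 2.71 h in STM2457 and 2.58 h in DMSO, and NSD2 had 4.37 h in STM2457 and 5.38 h in DMSO. KMT5A, the H4K20 monomethyltransferase, was 2.40-fold longer-lived, with 11.9 h in STM2457 and 4.95 h in DMSO. Its relatives that add further methyl groups stayed within 1.5-fold, with log2 ratios of 0.42 for KMT5C and -0.25 for KMT5B.

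Writers of H3K4 methylation moved little. SETD1B, a catalytic subunit of a COMPASS complex, had 2.51 h in STM2457 and 1.45 h in DMSO, the only one of the 6 past 1.5-fold. Its paralogue SETD1A had 2.65 h in STM2457 and 2.57 h in DMSO. The 5 mixed-lineage leukemia family members KMT2A, KMT2B, KMT2C, KMT2D and KMT2E all lay within 1.5-fold, with log2 ratios between 0.09 for KMT2E, a family member that lacks methyltransferase activity, and 0.51 for KMT2B. KMT2A overlaps AP001267.5 on its own strand, which leaves its value uncertain.

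Of the enzymes of H3K27 methylation, EZH2, the main catalytic subunit of PRC2, had 4.16 h in STM2457 and 3.49 h in DMSO. EZH1, its paralogue, was the single shorter-lived lysine methyltransferase, with 1.54 h in STM2457 and 2.38 h in DMSO. The H3K79 methyltransferase DOT1L had 5.46 h in STM2457 and 6.48 h in DMSO. SETD6, which methylates the RelA subunit of NF-kB, lay just inside the limit at 1.49-fold shorter, with 1.88 h in STM2457 and 2.80 h in DMSO. SETD7, a lysine methyltransferase with many non-histone substrates, was the longest-lived of this class in DMSO, with 17.9 h in STM2457 and 15.6 h in DMSO. The remaining members of the class lay within 1.5-fold, with log2 ratios of 0.02 for the H3K9 dimethyltransferase EHMT1, 0.38 for SETD5 and -0.14 for SETD4.

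Arginine methyltransferases showed 1 longer-lived and 2 shorter-lived transcripts among 7 (14.3% and 28.6%, against 28.5% and 24.9% of all genes). Their median log2 ratio was -0.40. PRMT6, which methylates H3R2, had 23.8 h in STM2457 and 2.78 h in DMSO and was 8.56-fold longer-lived. PRMT5, the main symmetric dimethyltransferase, went the other way, with 6.81 h in STM2457 and 17.0 h in DMSO, 2.50-fold shorter. PRMT2 was 1.55-fold shorter-lived, with 5.19 h in STM2457 and 8.05 h in DMSO. PRMT1, which makes most asymmetric dimethylarginine, had 20.3 h in STM2457 and 28.2 h in DMSO, the longest DMSO half-life of the 66. PRMT3, PRMT7 and PRMT9 lay within 1.5-fold, with log2 ratios of -0.22, -0.15 and -0.40. The other 6 of the 7 transcripts thus all had log2 ratios below 0.

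Lysine demethylases held 2 longer-lived and 2 shorter-lived transcripts among 13 (15.4% each, against 28.5% and 24.9% of all genes). Their median log2 ratio was -0.12. KDM2B, an H3K36 demethylase that also recruits variant PRC1 to CpG islands, had 69.3 h in STM2457 and 4.37 h in DMSO. KDM5B, an H3K4 demethylase, had 7.04 h in STM2457 and 2.09 h in DMSO and was 3.37-fold longer-lived. Their relatives did not share these shifts: KDM2A had 1.48 h in STM2457 and 2.09 h in DMSO, KDM5A had 3.52 h in STM2457 and 3.38 h in DMSO, and KDM5C had 5.67 h in STM2457 and 7.95 h in DMSO. KDM1A, the flavin-dependent H3K4 demethylase LSD1, was 1.83-fold shorter-lived, with 11.9 h in STM2457 and 21.8 h in DMSO. KDM3B, an H3K9 demethylase, was 1.78-fold shorter-lived, with 3.14 h in STM2457 and 5.59 h in DMSO. KDM3A, of the same family, had 3.18 h in STM2457 and 4.55 h in DMSO. KDM4A and KDM4B, which act on H3K9 and H3K36, and KDM7A, which acts on H3K9 and H3K27, lay within 1.5-fold, with log2 ratios of -0.12, -0.31 and -0.02. The H3K27 demethylases KDM6A and KDM6B were among the shortest-lived transcripts in both treatments, with 1.51 h and 1.505 h in STM2457 and 1.35 h and 1.34 h in DMSO.

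Enzymes that oppose each other at the same residue could be set side by side, although 2 to 6 transcripts stand on each side. At H3K9 the 3 writers all had log2 ratios above 0 (median 0.62) and the 5 erasers all had log2 ratios below 0 (median -0.31). Of the writers, EHMT1 had only 0.02, SUV39H1 was at the ceiling, and the median is the uncertain value of SUV39H2. Of the erasers, KDM7A had only -0.02, and KDM3B alone was past 1.5-fold. In STM2457 the median half-life was 4.82 h for H3K9 writers and 3.18 h for H3K9 erasers. In DMSO it was 2.98 h for the writers and 4.45 h for the erasers. The writer median is that of EHMT1 in STM2457 and that of SUV39H2 in DMSO. At H3K4 all 6 writers had log2 ratios above 0, with a median of 0.35, against a median of -0.21 for the 4 erasers. The H3K4 erasers had the longer half-lives in both treatments, as the writers had a median of 2.59 h and the erasers 6.36 h in STM2457, and the writers 2.15 h and the erasers 5.66 h in DMSO. At H3K36 the medians were 0.88 for 5 writers and -0.21 for 4 erasers, and the eraser KDM2B had a higher ratio than any of the writers. At H3K27 the order was the opposite, with a median of -0.19 for EZH1 and EZH2 and 0.16 for the 3 erasers. Demethylases that act at more than 1 residue enter each of its comparisons.

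**Figure D2:**
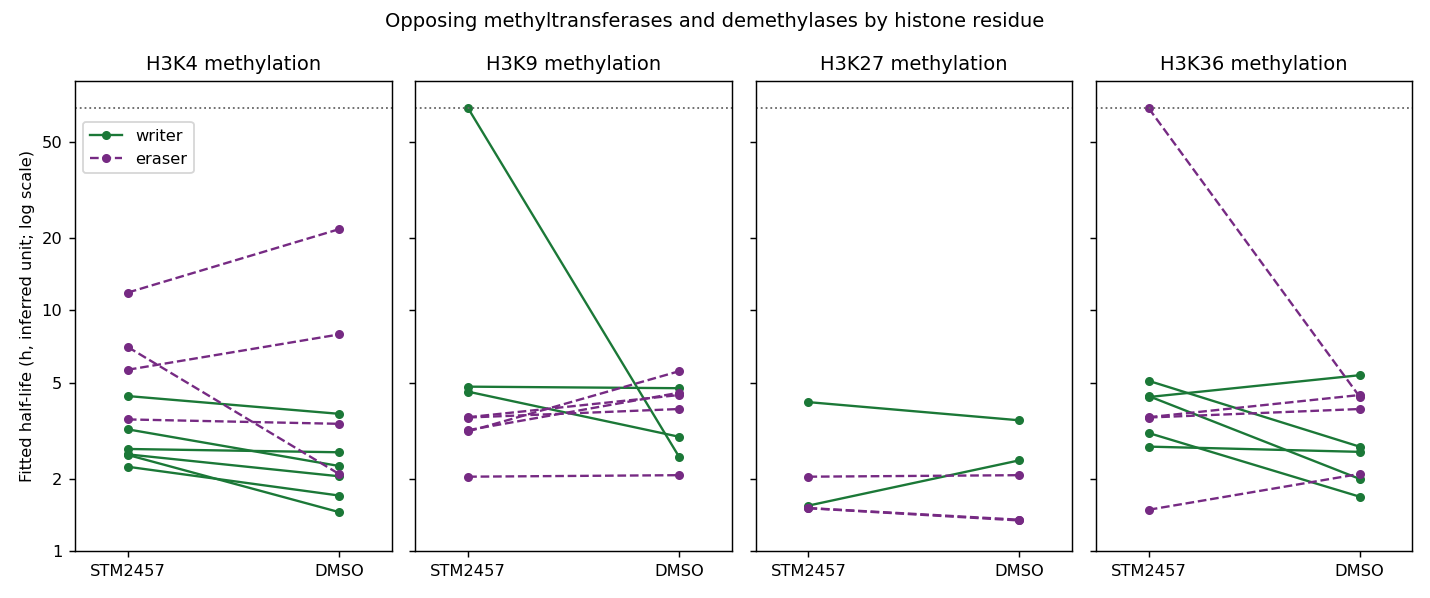
Fitted half-life in hours (an inferred unit, log scale) of methyltransferases (green, solid) and demethylases (purple, dashed) of 4 histone residues, with STM2457 on the left and DMSO on the right of each panel and 1 line per transcript. The lines of the 3 H3K9 writers lie higher in STM2457 than in DMSO and those of the 5 H3K9 erasers lie lower, though those of EHMT1 and KDM7A are nearly level. The dotted line marks the ceiling of 69.3 h.

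Acetyltransferases comprised 4 longer-lived and 2 shorter-lived transcripts among 8 (50% and 25%, against 28.5% and 24.9% of all genes). Their median log2 ratio was 0.70. CREBBP and EP300, the paralogous coactivators CBP and p300, moved together. CREBBP had 7.59 h in STM2457 and 2.11 h in DMSO, and EP300 had 6.62 h in STM2457 and 2.03 h in DMSO, which made them 3.59-fold and 3.27-fold longer-lived. KAT6A, a MYST family H3 acetyltransferase, was 2.45-fold longer-lived, with 4.50 h in STM2457 and 1.84 h in DMSO. KAT14, a component of the ATAC complex, had 48.9 h in STM2457 and 2.89 h in DMSO. KAT14 overlaps PET117 on the same strand, and EP300 holds MIR1281 in an exon, so both values are uncertain.

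The other acetyltransferases did not follow. KAT5, the catalytic subunit of the NuA4/TIP60 complex, was 1.80-fold shorter-lived, with 5.16 h in STM2457 and 9.28 h in DMSO. KAT2A, the GCN5 enzyme of the SAGA complex, lay just past the limit at 1.51-fold shorter, with 4.99 h in STM2457 and 7.56 h in DMSO. KAT7 and KAT8, MYST enzymes that act on H3K14 and H4K16, lay within 1.5-fold, with log2 ratios of -0.06 and 0.11. The BRPF scaffolds, which hold MYST enzymes on chromatin, were split: BRPF3 had 69.3 h in STM2457 and 3.59 h in DMSO, while BRPF1 had 1.39 h in STM2457 and 1.51 h in DMSO.

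HDACs contained the largest share of shorter-lived transcripts, 4 of 7 (57.1%, against 24.9% of all genes), with a median log2 ratio of -0.70. None of the 3 sirtuins was shorter-lived. Of all 10 acetylation erasers, 4 were longer-lived and 4 shorter-lived (40% each, against 28.5% and 24.9% of all genes). HDAC2 was 1.95-fold shorter-lived, with 6.16 h in STM2457 and 12.0 h in DMSO. HDAC3, the enzyme of NCoR/SMRT corepressor complexes, was 1.85-fold shorter-lived, with 11.3 h in STM2457 and 20.9 h in DMSO. HDAC8 was 1.62-fold shorter-lived, with 4.02 h in STM2457 and 6.53 h in DMSO. HDAC1, the close paralogue of HDAC2 in the same corepressor complexes, went the other way and was 1.78-fold longer-lived, with 29.01 h in STM2457 and 16.3 h in DMSO.

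Class IIa deacetylases, which shuttle between cytoplasm and nucleus, split as well. HDAC5 had 3.88 h in STM2457 and 9.94 h in DMSO, 2.56-fold shorter and the largest shift in that direction among the 66. HDAC7 had 69.3 h in STM2457 and 14.6 h in DMSO. HDAC6, a mainly cytoplasmic tubulin deacetylase, lay just inside the limit at 1.48-fold shorter, with 2.96 h in STM2457 and 4.38 h in DMSO. Among the NAD-dependent sirtuins, SIRT1 had the shortest DMSO half-life of all 66 transcripts, with 2.38 h in STM2457 and 0.912 h in DMSO, 2.61-fold longer. The mitochondrial SIRT3 had 69.3 h in STM2457 and 3.85 h in DMSO, and the nucleolar SIRT7 had 2.29 h in STM2457 and 2.64 h in DMSO.

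**Figure D3:**
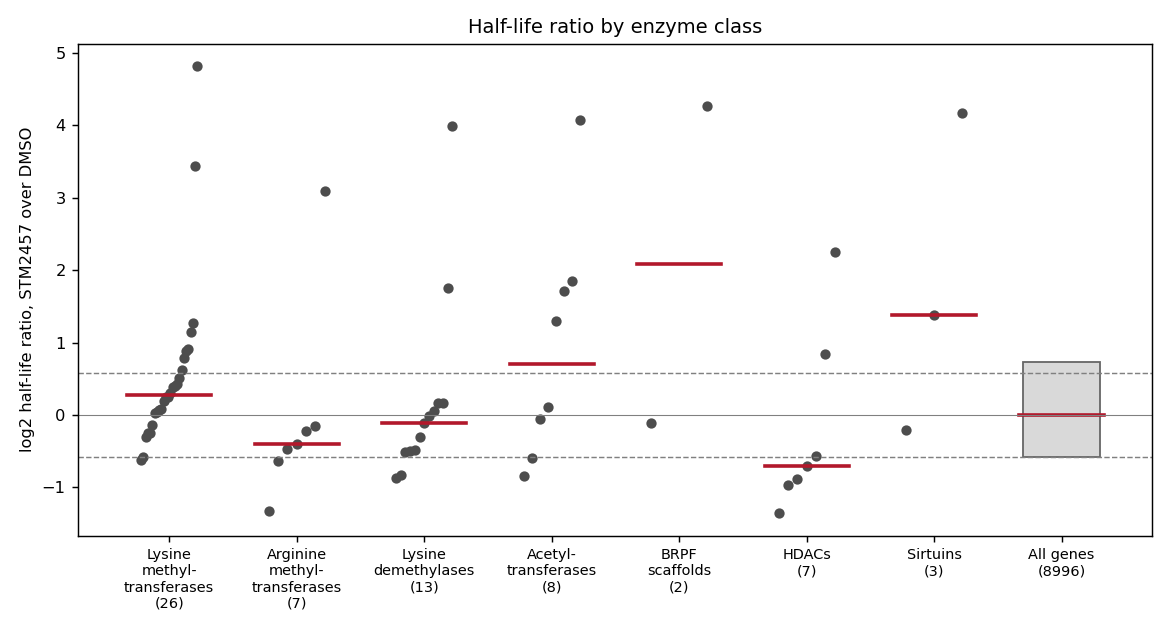
Log2 ratio of the half-life in STM2457 over that in DMSO for each transcript (points) by enzyme class, with the number of transcripts in parentheses, a red line at each median and dashed lines at 1.5-fold either way; the box for all 8996 genes spans the quartiles. The median is 0.70 for the 8 acetyltransferases and -0.70 for the 7 HDACs.

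Writers exceeded erasers in log2 ratio for both marks. For methylation the median was 0.20 over 33 writers and -0.12 over 13 erasers, a difference of 0.31, and for acetylation it was 0.70 over 8 writers and -0.39 over 10 erasers, a difference of 1.09. The acetylation difference became 0.57 without transcripts that share exon sequence with another gene on the same strand and 0.55 with means in place of medians. Over both marks, 13 of 41 writers were longer-lived and 5 shorter-lived, while 6 of 23 erasers were longer-lived and 6 shorter-lived. The longer-lived shares, 31.7% of writers and 26.1% of erasers, lay near the 28.5% of all genes. The shorter-lived share was 12.2% of writers and 26.1% of erasers, against 24.9% of all genes, so that of the writers was the one away from it. Arginine methyltransferases and sirtuins went against their sides, with medians of -0.40 among the writers and 1.38 among the erasers.

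Both sides also differed in their half-lives before any ratio was taken. In STM2457 the median was 4.37 h for methylation writers and 3.52 h for methylation erasers, and 5.74 h for acetylation writers and 5.09 h for acetylation erasers. In DMSO it was 2.78 h for methylation writers and 3.89 h for methylation erasers, and 2.67 h for acetylation writers and 8.23 h for acetylation erasers. The median of the writers was thus below that of the erasers in DMSO and above it in STM2457, for both marks. For acetylation this change of order rests on counting the 3 sirtuins as erasers. The 7 HDACs alone had medians of 6.16 h in STM2457 and 12.0 h in DMSO, above the acetylation writers in both treatments. In DMSO a half-life under 3 h, a limit chosen after the values were seen, was found for 24 of 41 writers and 7 of 23 erasers. The part of these DMSO half-lives in the difference of ratios was not tested.

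Close relatives often differed, and 18 families of paralogues, grouped after their values were seen, show how. In 4 families, the PRMT, MYST, class I HDAC and class IIa HDAC families, at least 1 transcript was longer-lived and at least 1 shorter-lived. Outside the MYST family, the only longer-lived transcript of each, PRMT6, HDAC1 or HDAC7, had a fit above the synthesis limit given further on. In 7 families longer-lived transcripts stood beside relatives within 1.5-fold, and in 2, EZH and KDM3, a shorter-lived one stood beside a relative within 1.5-fold. All measured members moved the same way past 1.5-fold in 2 families, SUV39H1 with SUV39H2 and CREBBP with EP300. All stayed within 1.5-fold in 3, the KMT2, KDM4 and KDM6 families. Fits above that limit also include KMT5A, KDM2B and BRPF3, each the only longer-lived transcript of its family, and SUV39H1 and CREBBP. How often unrelated genes differ in these ways was not tested.

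Long coding exons and many DRACH motifs are common among these genes. Motifs were counted in the coding region of the longest coding transcript of each gene in GENCODE release 29 (GRCh38), on the transcript strand, where the methylated A lies at least 100 nt from an exon junction. DRACH is read as A, G or T, then A or G, then AC, then A, C or T. The 66 genes had a median of 13 such motifs and 3117 coding bases, against 3 motifs and 1383 coding bases over all 8610 coding genes of the table. Stretches with many motifs are shown for 6 longer-lived transcripts, PRMT6, SIRT1, SETD2, ASH1L, EP300 and CREBBP, and for 2 within 1.5-fold that carry even more motifs, KMT2A and NSD1. Each is a 60-base window of the coding region, 5′ to 3′ on the strand of the transcript, with these motifs in capitals; motifs that touch or overlap run together.
PRMT6: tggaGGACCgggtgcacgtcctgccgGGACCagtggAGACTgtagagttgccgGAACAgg
SIRT1: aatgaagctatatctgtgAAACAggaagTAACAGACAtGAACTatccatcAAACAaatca
SETD2: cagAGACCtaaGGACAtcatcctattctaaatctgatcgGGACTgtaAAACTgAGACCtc
ASH1L: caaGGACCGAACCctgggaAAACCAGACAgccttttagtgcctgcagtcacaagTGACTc
EP300: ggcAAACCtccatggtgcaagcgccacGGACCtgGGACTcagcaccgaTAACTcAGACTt
CREBBP: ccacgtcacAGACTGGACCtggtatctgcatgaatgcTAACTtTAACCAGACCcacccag
KMT2A: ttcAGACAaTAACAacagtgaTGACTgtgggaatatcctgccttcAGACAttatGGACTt
NSD1: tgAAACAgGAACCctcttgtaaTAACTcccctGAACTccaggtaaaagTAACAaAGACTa

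In GRCh38 these windows lie at chr1:107057101-107057160 (PRMT6, plus strand), chr10:67916531-67916590 (SIRT1, plus), chr3:47123137-47123196 (SETD2, minus), chr1:155438834-155438893 (ASH1L, minus), chr22:41178857-41178916 (EP300, plus), chr16:3850536-3850595 (CREBBP, minus), chr11:118504397-118504456 (KMT2A, plus) and chr5:177135480-177135539 (NSD1, plus), each inside a coding exon. They were chosen as windows with the most motifs and are not typical of their genes. For a count of windows of this length, DRACH motifs at any distance from a junction were taken. Windows with at least 1 made up 71.9% of coding windows in the 66 genes and 71.4% in all coding genes. Those with at least 3 made up 11.5% and 11.7%, so the density of all DRACH motifs was near that of other genes. For motifs at least 100 nt from a junction, the medians of 13 in the 66 genes and 3 in all coding genes are counts per gene. Median coding lengths also differ, 3117 and 1383 bases, and the density of these motifs over all coding genes is not given here. A motif is a sequence match, and no m6A measurement was analysed here.

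The PRMT6 window is part of a gene whose whole coding region of 1125 nt lies in 1 exon, with 21 motifs. SIRT1 had 22 motifs, EP300 48 and CREBBP 51, and SETD2 and ASH1L had 120 and 133. KMT2A with 164 and NSD1 with 141 motifs had log2 ratios of only 0.30 and 0.07, and KMT2C with 167, the most of the 66, had 0.40. A high number of motifs therefore did not go with a long shift in every transcript.

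Among the 36 enzymes with at least 10 motifs, 14 were longer-lived (38.9%) and 1, KDM3B, was shorter-lived (2.78%). In all 2186 coding genes of that class 45.6% were longer-lived and 10.6% shorter-lived. The median log2 ratio was 0.27 for these enzymes and 0.47 for all genes of the class. Among the 30 enzymes with fewer than 10 motifs, 6 were longer-lived and 10 shorter-lived (20% and 33.3%), against 22.5% and 29.8% of all 6424 coding genes of the class. The median was -0.14 for these enzymes and -0.17 for all genes of the class. The 14 enzymes with at least 40 motifs had a median of 0.45, against 0.58 for all 407 such genes. The enzymes thus had lower medians than other motif-rich genes, and the difference between motif classes was 0.42 on the log2 scale.

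Half-lives themselves ran with motif number. In the class with at least 10 motifs the enzymes had a median of 3.16 h in STM2457 and 2.46 h in DMSO, and in the other class 5.17 h in STM2457 and 6.13 h in DMSO. Spearman's rho between motif number and half-life over the 66 genes was -0.36 in STM2457 and -0.67 in DMSO, against -0.22 and -0.50 over all coding genes. Between motif number and log2 ratio it was 0.37 for the enzymes and 0.26 for all coding genes. These are descriptions across genes, which share libraries and a fit and are not independent replicates. The 18 enzymes with a coding exon of at least 1000 nt included 8 longer-lived and 1 shorter-lived transcript, against 51.1% and 8.58% of all 1037 such genes. Their median log2 ratio was 0.45, against 0.60 over all such genes.

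**Figure D4:**
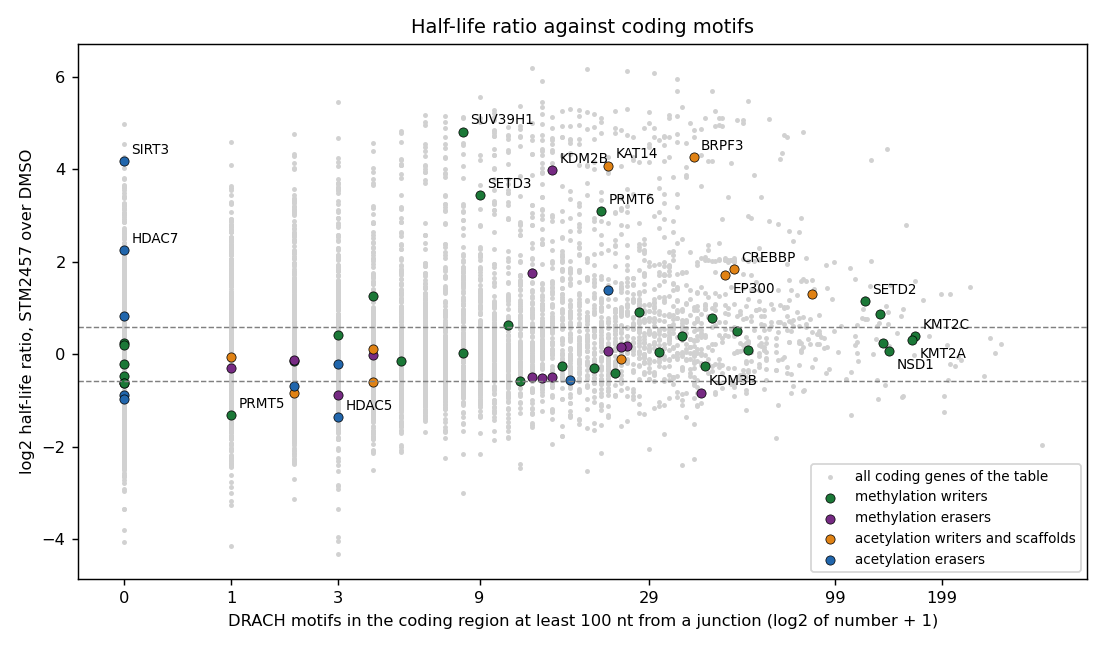
Log2 ratio of the half-life in STM2457 over that in DMSO against the number of coding DRACH motifs at least 100 nt from an exon junction (spaced as log2 of the number plus 1), with all coding genes of the table in grey, the 66 transcripts coloured by class and dashed lines at 1.5-fold either way. KMT2A, KMT2C and NSD1 lie at the right within 1.5-fold, and SIRT3 and HDAC7 lie high with no motif.

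Transcripts with no such motif shifted in both directions. Of the 11 enzymes with 0 motifs, 3 were longer-lived (27.3%, against 22.01% of all genes with 0 motifs), namely SIRT3, HDAC7 and HDAC1, and 4 were shorter-lived (36.4%, against 33.0%), which is near the shares of all such genes. The median log2 ratio of these 11 was -0.22, the value also found for all 2144 genes with 0 motifs.

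Longer-lived transcripts mostly had lower fitted synthesis rates in STM2457 than in DMSO. The log2 ratio of the fitted synthesis rate, STM2457 over DMSO, was below 0 for 49 of 66 enzymes (74.2%) with a median of -0.28, against 54.7% and -0.06 over all genes. It was below 0 for 18 of the 20 longer-lived transcripts, all but HDAC7 (0.95) and SETD1B (0.11), and for 6 of the 11 shorter-lived ones. Both quantities come from the same fit, so an error in 1 can pass to the other. Methylation writers had a median synthesis ratio of -0.28 and methylation erasers -0.36, and acetylation writers had -0.44 and acetylation erasers -0.17.

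Synthesis rate and half-life together imply an abundance at steady state, which was set against a limit. A transcript need not have reached steady state by 6 h, and the kinetic model is not given. A value above the limit therefore does not show that a fit is wrong. Had nothing decayed, 6 h of synthesis at the fitted STM2457 rate, the 3 h of treatment and the longest labelling, could raise a transcript from its DMSO level only so far. The implied abundance was above that limit for 12 of 66 enzymes (18.2%, against 23.4% of all genes), of which 11 were longer-lived. For SUV39H1 the fits implied 19.7 times the DMSO abundance against a limit of 2.18 times, for BRPF3 14.8 times against 1.89 times, and for KDM2B 12.3 times against 1.74 times. CREBBP at 2.39 against 2.31 lay just over, and EP300 at 2.31 against 2.45 just under. The others over it were SETD3, KMT5A, PRMT6, KAT14, HDAC1, HDAC7 and SIRT3, and SETD7 among the transcripts within 1.5-fold. The 9 longer-lived enzymes under it were SETD2, NSD3, ASH1L, SETD1B, SUV39H2, KDM5B, EP300, KAT6A and SIRT1.

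Reads are assigned to genes by the authors, and no label or header states the strand setting. Exons of 11 of the 66 genes overlap another gene on the same strand, among them EHMT1, ASH1L with MIR555, KDM4A, PRMT1, KAT2A, KAT7, HDAC8 and SIRT7 with MAFG. Exons of 28 overlap a gene on the other strand, including SIRT3 with PSMD13, HDAC7 with SLC48A1, KDM2B with RNF34, SUV39H1 with AC231533.1 and KAT5 with RNASEH2C. Values of these transcripts are uncertain to that extent.

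Genes of the same pathways outside the symbol rule give a comparison, from lists chosen with earlier results of these data known. Of 16 measured histone-modifying enzymes with other symbols, 4 were longer-lived and 4 shorter-lived, with a median log2 ratio of 0.05. Among 14 measured COMPASS subunits 4 were longer-lived (28.6%) and 5 shorter-lived (35.7%), with a median of -0.43. Among 8 PRC2 subunits 1 was longer-lived (12.5%) and 2 shorter-lived (25%), with a median of 0.01. NCOA6, a coactivator in the KMT2C and KMT2D complexes, overlaps PIGU on its own strand. It was 3.97-fold longer-lived, with 13.4 h in STM2457 and 3.38 h in DMSO. Its implied abundance, 2.18 times the DMSO level, was above the synthesis limit of 1.67 times. HCFC1, a host cell factor of the SETD1 complexes, had 3.26 h in STM2457 and 17.2 h in DMSO. Of the PRC2 subunits, the histone-binding RBBP4, which deacetylase complexes also hold, had 9.27 h in STM2457 and 6.39 h in DMSO. EED, which binds the H3K27me3 mark, had 1.39 h in STM2457 and 3.03 h in DMSO, whereas its catalytic partner EZH2 lay within 1.5-fold.

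Acetyltransferase complexes had 4 longer-lived (18.2%, against 28.5% of all genes) and 8 shorter-lived (36.4%, against 24.9%) subunits among 22 measured, with a median of -0.32. The 8 acetyltransferases, with 0.70, include the longer-lived coactivators CREBBP and EP300. Those medians therefore do not compare subunits of the same complexes. MSL1, a scaffold of the KAT8 complex, was 2.24-fold longer-lived, with 5.99 h in STM2457 and 2.67 h in DMSO, and DMAP1, a subunit of the KAT5 complex, had 5.27 h in STM2457 and 18.0 h in DMSO. Deacetylase complexes had 3 longer-lived (10%, against 28.5% of all genes) and 9 shorter-lived (30%, against 24.9%) subunits among 30, with a median of -0.03. Their shorter-lived share was thus near that of all genes. ING2, a PHD finger protein of SIN3 complexes with HDAC1 and HDAC2, was 1.93-fold longer-lived, with 4.29 h in STM2457 and 2.23 h in DMSO, and BRMS1L, another subunit of SIN3 complexes, had 2.26 h in STM2457 and 19.7 h in DMSO.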

How the data were processed

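SLAM-seq was run on HEK293T cells in 18 samples, 9 with STM2457 and 9 with DMSO. Per the submitters' processing notes, reads went through FastQC 0.11.9 and STAR 2.7.8a on GRCh38.p12. Not given in the sources used here are the kinetic model, the counting strand and any gene filter. The authors deposited 1 half-life and 1 synthesis rate for every gene under each treatment, with log2 ratios (STM2457 over DMSO) that equalled those recomputed from the half-lives to within 1.27e-14. No time unit stands in the file headers. Hours were inferred from the ceiling of 69.3, ln 2 over a rate of 0.01, and every value in hours rests on this. With 1 value per gene and treatment there is no error, depth or test.

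The log2 half-life ratio was recomputed for all 8996 genes with Python 3.11.15, NumPy 2.4.6, pandas 2.3.3 and SciPy 1.17.1, and calls used 1.5-fold. GENCODE 29 matched 8982 identifiers without their version. Near-identical transcript ends were sought with BLAST 2.17.0 over the last 300 bases (at least 100 aligned bases at 95% identity). Counting steps were tested on simulated data. Every member is counted and may be named; of each partner list the text names the genes with the highest and the lowest ratio among those between 0.5 and 24 h in both treatments. The members, lists and families were chosen with earlier results of these data known.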

Additional observations from a re-analysis of the deposited data

How the results depend on the processing

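Results were recomputed under other settings, one at a time, and the cause of each change was not tested. The 11 shorter-lived enzymes became 2 at 2-fold. The count of longer-lived enzymes, 20, became 14 without transcripts at the ceiling and 12 with both half-lives between 0.5 and 24 h. Both of these filters act on the STM2457 half-life and kept all 11 shorter-lived enzymes, which lowers the count and the median. The median log2 ratio, 0.07, reversed to -0.0209 in that range; it was 0.0003 without transcripts at the ceiling, 0.49 as a mean, 0.0795 without mainly non-histone enzymes, 0.11 with lysine methyltransferases as the only methylation writers, 0.0605 with HDACs as the only acetylation erasers and 0.0868 without same-strand overlaps. The methylation difference, 0.31 for writers minus erasers, was 0.35 in the range, 0.30 without the ceiling, 0.25 by means, 0.36 without mainly non-histone enzymes, 0.39 with lysine methyltransferases alone and 0.36 without overlaps. The acetylation difference, 1.09, was 0.81 in the range, 1.33 without the ceiling, 0.55 by means, 1.15 without mainly non-histone enzymes, 1.40 with HDACs alone and 0.57 without overlaps. Both differences kept their sign in each of these settings. The motif class difference, 0.42, was 0.64 at 50 nt, 0.49 at 200 nt and 0.59 per 1000 coding bases.

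An alternative added after seeing the data left out the 12 enzymes above the 6 h synthesis limit, of which 11 were longer-lived. After that, 9 were longer-lived and the median was -0.115, both lower because of what the filter removes. The differences were 0.27 for methylation and 0.73 for acetylation. No paired analysis was possible because the table has no value for a single sample. Without counts, depth sets no limit that can be stated.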

Other observations

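Genes that supply the cofactors of these enzymes were listed with them, and 7 were measured, with a median log2 ratio of -0.09. Of these, 1 was longer-lived (14.3%, against 28.5% of all genes) and 3 shorter-lived (42.9%, against 24.9%). ACLY, IDH1, IDH2, NAMPT and AHCY are named after their values were seen. ACLY, which makes nuclear and cytosolic acetyl-CoA for histone acetylation, was 2.28-fold longer-lived, with 44.7 h in STM2457 and 19.6 h in DMSO. Its implied abundance, 2.90 times the DMSO level, was above the 6 h synthesis limit of 1.27 times. MAT2A, which makes S-adenosylmethionine, had 1.88 h in STM2457 and 1.95 h in DMSO, and MAT2B, its regulatory partner, had 2.14 h in STM2457 and 3.99 h in DMSO. IDH1 lay within 1.5-fold, with 7.40 h in STM2457 and 7.88 h in DMSO. Its relative IDH2, which makes 2-oxoglutarate, a cosubstrate of most demethylases, was 2.50-fold shorter-lived, with 11.5 h in STM2457 and 28.7 h in DMSO. NAMPT, the salvage enzyme for the NAD that sirtuins use, was also shorter-lived, with 3.86 h in STM2457 and 5.96 h in DMSO. AHCY was at the ceiling of 69.3 h in STM2457 and had 59.0 h in DMSO.

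NAA60, a histone and protein acetyltransferase outside the symbol rule, had 21.99 h in STM2457 and 3.08 h in DMSO, and it overlaps AC004224.2 on the same strand. Its implied abundance, 3.49 times the DMSO level, was above the synthesis limit of 1.66 times. CARM1, an arginine methyltransferase outside the rule, had 4.79 h in STM2457 and 9.46 h in DMSO.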
